A study of Mus musculus with 12 samples.

Results

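The genes described here encode 3 of the enzyme complexes in the inner mitochondrial membrane, namely complex II (succinate dehydrogenase), complex III (the cytochrome bc1 complex) and the ATP synthase. They were chosen by symbol, as the rows that begin with Sdha to Sdhd, Sdhaf and a digit, Uqc, Atp5 or Atpaf, or that read Cyc1 or Bcs1l. The rule found 39 of the 14159 genes listed in the deposited values, of which 8 belong to complex II, 13 to complex III and 18 to the ATP synthase. All 39 passed the filter on low values, which asked for 10 normalized counts or more on average across the 12 libraries, and 30 are subunits while 9 encode assembly factors. The genes were measured by RNA-seq of polyadenylated RNA from whole inguinal white adipose tissue (iWAT), a fat depot under the skin of the mouse in which cold turns part of the white adipocytes into heat-producing beige adipocytes. All mice carried floxed Atf4 alleles. Atf4AKO mice also carried Adipoq-Cre, a recombinase driven by the adiponectin promoter and so active in adipocytes but not in the other cells of the depot, while their littermates without Cre served as Atf4WT. Each genotype was kept at room temperature (RT) or exposed to cold for 24 h, which gave 4 groups of 3 biological replicates, and the age and sex of these mice are not given in the sources used here. A normalized count is the number of reads of a gene divided by the size factor of the library, and the libraries held between 25719476 and 29105147 reads on listed genes.

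Complex II oxidizes succinate in the tricarboxylic acid cycle and hands the electrons to ubiquinone without pumping protons. Complex III takes electrons from reduced ubiquinone, passes them to cytochrome c and pumps protons out of the matrix, and the ATP synthase lets the protons flow back through its rotor to make ATP. In beige adipocytes the uncoupling protein UCP1 opens another way back for the protons, so that the respiratory chain can run without the ATP synthase and the energy is released as heat. Cytochrome b of complex III and the subunits a and A6L of the ATP synthase are encoded in mitochondrial DNA, and their transcripts were not analysed here.

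The libraries matched their genotype in Atf4, which encodes the transcription factor deleted in adipocytes and which gave normalized counts of 5669, 4670.3 and 4107 in Atf4WT iWAT at RT and 7644, 7511 and 5756 after cold exposure, and of 1594, 1469.7 and 1639 and then 1578, 788 and 1179.8 in Atf4AKO iWAT. Cells of the depot without Cre keep the gene. The white adipocyte markers, 10 of 10 of which were analysed, were abundant in all libraries, with Adipoq, the gene of adiponectin, between 55499.7 and 108458 normalized counts. Adipoq fell after cold exposure by 0.60 ± 0.16 on the log2 scale in Atf4WT iWAT (limma adjusted p = 0.0148) and had -0.36 ± 0.16 in Atf4AKO iWAT (adjusted p = 0.119), and the other 9 passed in neither. Markers of other tissues differed between libraries. Skeletal muscle markers, of which 6 of 10 were analysed, summed to 117571 normalized counts in replicate 2 of Atf4WT iWAT at RT, 39953 in replicate 0 of cold-exposed Atf4WT iWAT and 4214 in replicate 1 of cold-exposed Atf4AKO iWAT, against 87.0 to 849.8 in the other 9 libraries. B cell markers, of which 7 of 10 were analysed, summed to between 3017 and 10463.5 normalized counts in cold-exposed Atf4WT iWAT, to 3073 in replicate 2 of Atf4WT iWAT at RT, and to between 66.9 and 381 in the other libraries. T cell markers, 10 of 10 of which were analysed, summed to between 993 and 7389.7 in cold-exposed Atf4WT iWAT and to between 186 and 872 elsewhere. All 7 B cell and all 10 T cell markers rose after cold exposure in Atf4WT iWAT and none passed in Atf4AKO iWAT. No muscle marker passed in either genotype, and the 6 beige adipocyte markers rose in both. In bulk tissue a lower value can mean fewer cells of a type or less RNA per cell, and these cannot be told apart.

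Cold exposure was compared with RT in each genotype to ask how far these genes follow the thermogenic program. In Atf4WT iWAT 26 of the 39 genes rose and none fell at a Benjamini-Hochberg adjusted p-value under 0.05 (limma across all 13404 tested genes), whereas 17.0% of all tested genes rose and 14.9% fell. The median log2 fold change of the 39 genes was 0.62, a fold of 1.54, against 0.00 for all tested genes. In Atf4AKO iWAT 26 rose and none fell as well, against 14.8% of all tested genes that rose and 11.0% that fell, with a median of 0.60 against -0.03 for all tested genes. In both genotypes 23 genes rose, a further 3 were called in Atf4WT alone (Atp5k, Uqcc2 and Uqcrq) and 3 in Atf4AKO alone (Atp5b, Atp5g1 and Sdhaf2), and 10 passed in neither. Such lists do not show that a gene responded differently in the genotypes, and the test of that difference is given further on. By fold change over 1.5 with an unadjusted p-value under 0.05, 22 of the 39 genes passed upwards in Atf4WT iWAT (10.9% of all tested genes) and 21 in Atf4AKO iWAT (8.30%).

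**Figure D1:**
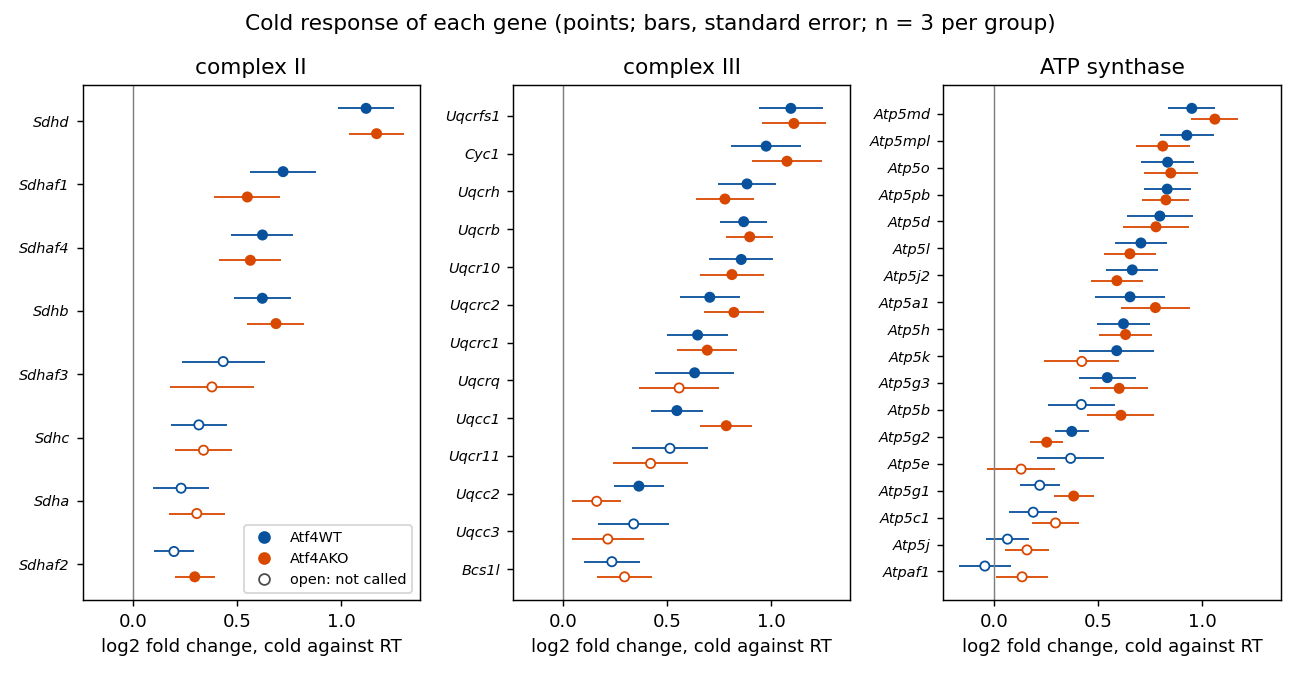
The log2 fold change of each gene after cold exposure is plotted on the horizontal axis, with bars for the standard error, for Atf4WT (blue) and Atf4AKO (orange) iWAT, 3 libraries per group. Filled points passed an adjusted p-value of 0.05. Sdhd, Uqcrfs1 and Atp5md lead their complexes in both genotypes, and the points of the genotypes lie close together.

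Of the 39 log2 fold changes 38 were above 0 in Atf4WT iWAT (50.2% of all tested genes) and 39 in Atf4AKO iWAT (46.9%). The responses of single genes ranged in Atf4WT iWAT from -0.04 for Atpaf1 to 1.12 for Sdhd, and in Atf4AKO iWAT from 0.13 for Atp5e to 1.17 for Sdhd. The cold responses of the genotypes rest on separate libraries, and across the 39 genes they correlated with a Pearson r of 0.92, against 0.59 across all tested genes. Genes are not independent replicates, so these coefficients are descriptive. In Atf4WT iWAT 32 of the 39 genes had all 3 cold libraries above all 3 RT libraries, as had 23.9% of all tested genes, and in Atf4AKO iWAT 29 had, against 21.7%. The libraries within a group tended to move as a whole. Replicate 2 of Atf4WT iWAT at RT, the library with the highest muscle marker sum, was the lowest of its group in 37 of the 39 genes. The other libraries rich in muscle markers were instead mostly the highest of their groups. This held for replicate 0 of cold-exposed Atf4WT iWAT in 26 genes and for replicate 1 of cold-exposed Atf4AKO iWAT in 33. Among libraries with few muscle markers, replicate 2 of cold-exposed Atf4WT iWAT was the lowest in 31. Replicate 1 of Atf4AKO iWAT at RT was the highest in 37. With replicate 2 at RT and replicate 0 in the cold left out of Atf4WT iWAT, 17 of the 39 genes rose in that genotype. Atp5a1, Atp5g2 and Atp5g3 were among the genes that no longer passed, and 37 of 39 log2 fold changes stayed above 0. Over all tested genes the calls in Atf4WT iWAT, in either direction, went from 4273 to 3201 with these libraries left out. With all libraries and a covariate for muscle markers 26 rose in Atf4WT and 24 in Atf4AKO iWAT, and the medians in Atf4WT iWAT were 0.53 for complex II, 0.64 for complex III and 0.61 for the ATP synthase. With a covariate for lymphocyte markers the medians in Atf4WT iWAT became larger, 0.91 for complex II, 1.09 for complex III and 1.00 for the ATP synthase. The mean log2 value of these markers in Atf4WT iWAT was 4.26, 3.93 and 7.10 at RT and 7.27, 9.28 and 9.77 in the cold. These values did not overlap, so the covariate cannot be told apart from cold exposure there. Over all tested genes it lowered the calls in Atf4WT iWAT from 4273 to 1806.

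**Figure D2:**
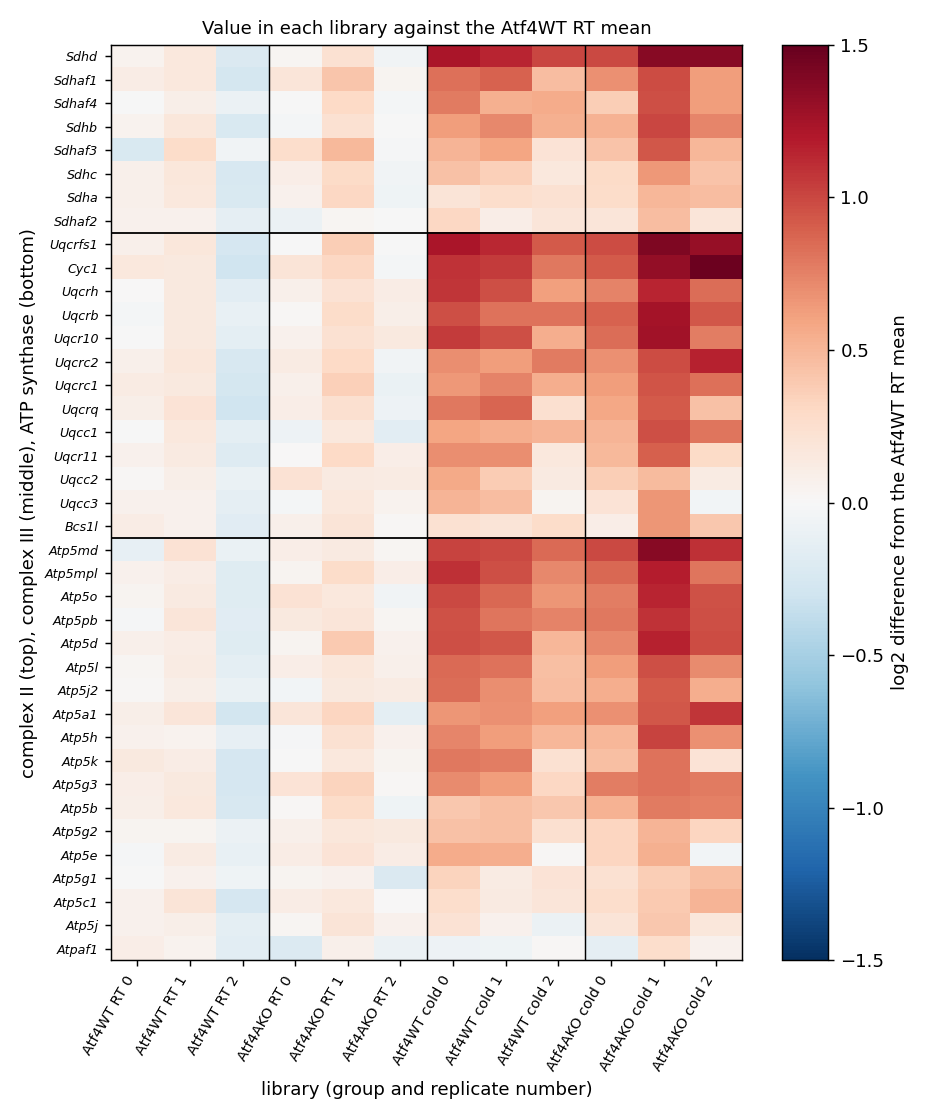
Each row is a gene and each column a library, and the colour gives the log2 difference of its value from the mean of the 3 Atf4WT RT libraries. Within each complex the genes are ordered by their cold response in Atf4WT iWAT. The 6 cold libraries on the right are red over most rows, and the lowest rows of each complex are pale.

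The stretches before the start sites of 4 genes are shown because Sdhd and Sdha are the complex II subunits with the largest and the smallest cold response in Atf4WT iWAT, Uqcrfs1 had the largest in complex III, and Atp5g3 is the main gene of the c subunit. They come from RefSeq (GRCm38.p6, the same build as mm10), are written along the strand of the gene, all on the minus strand, and end at the base named in the next sentences. Capitals mark matches, on either strand, to short motifs: TCAAGGTCA, the element of the estrogen-related receptors (ERR), the NRF1 motif, CCGGAAG for GABPA and other ETS factors, and TGACGTCA, the cAMP response element (CRE). Stretches inside annotated exons were left out beyond 30 bases.
Sdhd, chr9:50603850-50603928: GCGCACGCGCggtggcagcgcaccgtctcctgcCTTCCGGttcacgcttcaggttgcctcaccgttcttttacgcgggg
Sdha, chr13:74350281-74350338: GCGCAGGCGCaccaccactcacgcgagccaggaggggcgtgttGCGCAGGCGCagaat
Uqcrfs1, chr13:30545338-30545566: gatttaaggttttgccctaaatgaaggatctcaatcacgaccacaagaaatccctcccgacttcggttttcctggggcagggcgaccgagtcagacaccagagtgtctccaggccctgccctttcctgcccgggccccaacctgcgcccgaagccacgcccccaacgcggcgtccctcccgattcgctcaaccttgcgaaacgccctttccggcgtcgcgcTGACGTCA
Atp5g3, chr2:73911327-73911576: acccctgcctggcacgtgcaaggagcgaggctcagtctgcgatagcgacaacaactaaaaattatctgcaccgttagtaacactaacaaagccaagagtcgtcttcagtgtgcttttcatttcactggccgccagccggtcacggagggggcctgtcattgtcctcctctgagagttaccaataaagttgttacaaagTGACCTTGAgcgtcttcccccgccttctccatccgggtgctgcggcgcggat
The Sdhd stretch runs to the base before the start and holds an NRF1 match that begins 79 bases and an ETS match that begins 46 bases before the start, and an ERR match follows 37 bases after the start, outside the stretch printed. The Sdha stretch ends 41 bases before the start and shows 2 NRF1 matches, at 98 and 55 bases, while a further match lies at 10 bases. The CRE match of Uqcrfs1 begins 29 bases before the start, where the printed stretch ends at base 22, and the ERR match of Atp5g3 begins 52 bases before the start. An NRF1 match of Atp5g3 follows 13 bases after the start, outside the stretch printed. A match is a description of the letters and not evidence of binding.

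Promoters of 300 bases (250 before and 50 after the start) were given for 32 of the 39 genes. The NRF1 motif was found in 12 of them (37.5%), against 10.8% of the tested genes with a promoter and 4.6% of all 32851 promoters of the table. The ETS motif was found in 14 (43.8%), against 18.8% and 8.86%, and 4 promoters held both motifs. ERR elements were found in the promoters of Sdhd and Atp5g3 only, 6.25% of the 32, against 0.291% of the tested genes and 0.423% of all promoters. A YY1 motif, AAGATGGCG, was found for Atp5j and Atp5j2, 6.25% against 3.3% of the tested genes and 1.4% of all promoters. The CRE was found for Uqcrfs1 alone, 3.12% against 3.37% of the tested genes. The composite C/EBP-ATF element, TGATGNAA, which ATF4 can bind with a partner, matched in none of the 32 promoters and in 2.79% of those of the tested genes; this concerns only these letters in these windows. Genes with and without the NRF1 motif had median log2 fold changes of 0.57 and 0.58 in Atf4WT iWAT and of 0.49 and 0.60 in Atf4AKO iWAT. Those with and without the ETS motif had 0.61 and 0.55 in Atf4WT iWAT, and in the other order 0.49 and 0.60 in Atf4AKO iWAT.

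Complex II responded unevenly among its 4 subunits: the iron-sulfur subunit and an anchor rose, while neither the flavoprotein nor the other anchor passed the test. Sdhd, a membrane anchor that helps bind ubiquinone, gave normalized counts of 6518, 7008 and 5395 in Atf4WT iWAT at RT and 14659.7, 13805 and 12523 after cold exposure, and of 6383, 7368 and 6041 and then 12463, 16101 and 16173 in Atf4AKO iWAT. The cold libraries lay above the RT libraries without overlap in both genotypes, and the log2 fold change was 1.12 ± 0.13 (SE; 2.17-fold, limma adjusted p = 0.000245) in Atf4WT and 1.17 ± 0.13 (adjusted p = 0.000225) in Atf4AKO iWAT. Sdhb, the subunit whose iron-sulfur clusters carry the electrons, gave normalized counts of 7859, 8527 and 6466 in Atf4WT iWAT at RT and 11649.9, 12422 and 10926 after cold exposure, and of 7396, 8883 and 7547 and then 10886, 15128 and 12591 in Atf4AKO iWAT. It did not overlap either and rose by 0.62 ± 0.14 (adjusted p = 0.00622) and 0.69 ± 0.14 (adjusted p = 0.00459). Sdha, the flavoprotein that oxidizes succinate, gave normalized counts of 29641, 31376 and 23981 in Atf4WT iWAT at RT and 32289, 33867 and 33063 after cold exposure, and of 29528, 35029.6 and 26946 and then 34162, 39818 and 38849.7 in Atf4AKO iWAT. The cold libraries were higher without overlap in Atf4WT but not in Atf4AKO iWAT, and the differences of 0.23 ± 0.13 and 0.31 ± 0.13 did not pass the test (adjusted p = 0.205 and 0.112). Sdhc, the second anchor, gave normalized counts of 7672, 8193 and 6196 in Atf4WT iWAT at RT and 9883, 9344 and 8163 after cold exposure, and of 7824, 8908 and 7059 and then 8898, 11458 and 9786 in Atf4AKO iWAT. Its groups overlapped in both genotypes, with differences of 0.32 ± 0.14 in Atf4WT (adjusted p = 0.0956) and 0.34 ± 0.14 in Atf4AKO iWAT (adjusted p = 0.0873).

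Because Sdhd and Sdha are read in the same libraries, their ratio was taken within each library, a choice made after their values were seen. There were 0.220, 0.223 and 0.225 normalized counts of Sdhd per count of Sdha in Atf4WT iWAT at RT and 0.216, 0.210 and 0.224 in Atf4AKO iWAT at RT. After cold exposure the ratios were 0.454, 0.408 and 0.379 in Atf4WT and 0.365, 0.404 and 0.416 in Atf4AKO iWAT. The 6 RT libraries, including the library with the highest muscle marker sum, lay within 0.210 to 0.225 and the 6 cold libraries within 0.365 to 0.454. The ratio of Sdhb to Sdha was also higher in the cold without overlap, with 0.269 ± 0.0034 (SD, n = 3) at RT and 0.353 ± 0.019 in the cold in Atf4WT iWAT, and 0.261 ± 0.016 and 0.341 ± 0.034 in Atf4AKO iWAT.

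Of the 4 assembly factors of complex II, Sdhaf1 and Sdhaf4 rose in both genotypes. Sdhaf1, which serves the iron-sulfur maturation of SDHB, rose by 0.72 ± 0.16 (limma adjusted p = 0.00614) and 0.55 ± 0.16 (adjusted p = 0.0262), but 1733 of the 2490 exon bases of the gene are shared with a transcript on the opposite strand. The libraries were strand-specific, and whether the counting used the strand is not given in the sources used here, which also bears on the other overlaps between genes. Sdhaf4, which holds flavinylated SDHA before assembly, rose by 0.62 ± 0.15 and 0.56 ± 0.15 (adjusted p = 0.00946 and 0.0183). Sdhaf2, needed to attach the flavin to SDHA, was the member of complex II with the smallest response in Atf4WT iWAT and gave normalized counts of 1407, 1405 and 1226 in Atf4WT iWAT at RT and 1664, 1444 and 1522 after cold exposure, and of 1259, 1366 and 1339.6 and then 1525, 1845 and 1521 in Atf4AKO iWAT. Its difference of 0.20 ± 0.10 did not pass in Atf4WT (adjusted p = 0.141), and the 0.30 ± 0.10 in Atf4AKO iWAT passed narrowly (adjusted p = 0.0428). This call was lost in 10 of 25 alternatives, among them the fits without any 1 of the 3 Atf4AKO RT libraries, replicate 1 of cold-exposed Atf4AKO iWAT, replicate 0 or 1 of Atf4WT iWAT at RT or replicate 2 of cold-exposed Atf4WT iWAT (adjusted p = 0.0515 to 0.162). Sdhaf3 had differences of 0.43 ± 0.20 and 0.38 ± 0.20, with overlapping groups (adjusted p = 0.119 and 0.184).

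Most subunits of complex III rose, 8 of 9 in Atf4WT and 7 of 9 in Atf4AKO iWAT, with median log2 fold changes of 0.86 and 0.81. The catalytic and core proteins all rose in both genotypes. Uqcrfs1, the Rieske iron-sulfur protein that takes electrons from ubiquinol, gave normalized counts of 9428, 9995 and 7502 in Atf4WT iWAT at RT and 20807, 19515 and 16915 after cold exposure, and of 8888, 11468 and 8889 and then 17512, 23515 and 22033 in Atf4AKO iWAT. It rose by 1.09 ± 0.15 (2.13-fold, limma adjusted p = 0.000647) and 1.11 ± 0.15 (adjusted p = 0.000685), with no overlap between cold and RT libraries. Cyc1, cytochrome c1, which receives the electrons from the Rieske protein and passes them to cytochrome c, gave normalized counts of 8871, 8823 and 6482 in Atf4WT iWAT at RT and 16903, 16523 and 13789 after cold exposure, and of 9094, 9884 and 7841 and then 15050.1, 19824 and 22084 in Atf4AKO iWAT. It rose by 0.97 ± 0.17 in Atf4WT (adjusted p = 0.00179) and by 1.07 ± 0.17 in Atf4AKO iWAT (adjusted p = 0.00131), again without overlap. The core proteins on the matrix side had smaller log2 fold changes. Uqcrc1 gave normalized counts of 12004, 12263 and 9196 in Atf4WT iWAT at RT and 17361, 18527 and 16108 after cold exposure, and of 11635, 14127 and 10321 and then 17141, 21359.7 and 19535 in Atf4AKO iWAT, a rise by 0.65 ± 0.14 (adjusted p = 0.00691) and 0.69 ± 0.14 (adjusted p = 0.00589). Uqcrc2 gave normalized counts of 10602, 11331 and 8487 in Atf4WT iWAT at RT and 16366, 15546 and 17322 after cold exposure, and of 10972, 12372 and 9666 and then 16241, 19839 and 22394 in Atf4AKO iWAT, a rise by 0.70 ± 0.14 (adjusted p = 0.00439) and 0.82 ± 0.14 (adjusted p = 0.00236); it shares 504 exon bases with Pdzd9 on the opposite strand.

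The small subunits of complex III, which surround the catalytic core, lay at a median of 0.86 in Atf4WT and 0.78 in Atf4AKO iWAT on the log2 scale, beside those of the core proteins (0.84 and 0.95). Uqcrh, the hinge protein near cytochrome c1, rose by 0.88 ± 0.14 and 0.78 ± 0.14, Uqcrb by 0.87 ± 0.11 and 0.90 ± 0.11, and Uqcr10 by 0.86 ± 0.15 and 0.81 ± 0.15, with limma adjusted p-values between 0.000427 and 0.00353. Uqcrq rose in Atf4WT by 0.63 ± 0.19 (adjusted p = 0.0268), and its 0.56 ± 0.19 in Atf4AKO iWAT did not pass (adjusted p = 0.0518). Uqcr11 was the only subunit of complex III that passed in neither genotype, with 6325, 6652 and 5275 normalized counts at RT against 9778, 9782 and 6739.9 in the cold in Atf4WT iWAT, and 6075, 7464 and 6463 against 8462, 11251 and 7367 in Atf4AKO iWAT. Its differences were 0.51 ± 0.18 in Atf4WT (adjusted p = 0.0501) and 0.42 ± 0.18 in Atf4AKO iWAT (adjusted p = 0.11), and the groups overlapped in Atf4AKO iWAT alone.

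The 4 assembly factors of complex III that the symbol rule chose had median log2 fold changes of 0.35 in Atf4WT and 0.25 in Atf4AKO iWAT, without a test against the subunits. The rule leaves out the assembly factors Lyrm7 (0.75 and 0.76), Ttc19 (0.34 and 0.49) and Smim4 (0.63 and 0.55), which rose in both genotypes. Uqcc1, a factor for the synthesis and assembly of cytochrome b, rose by 0.55 ± 0.12 (limma adjusted p = 0.00753) and 0.78 ± 0.12 (adjusted p = 0.00146). Its partner Uqcc2 rose by 0.36 ± 0.12 in Atf4WT iWAT (adjusted p = 0.0366), with 0.16 ± 0.12 in Atf4AKO iWAT (adjusted p = 0.34). Uqcc3 passed in neither (0.34 ± 0.17 and 0.21 ± 0.17). Bcs1l, the AAA protein that moves the folded Rieske protein across the membrane, had the smallest response of complex III in Atf4WT iWAT and gave normalized counts of 666, 645 and 551 in Atf4WT iWAT at RT and 725, 707 and 751 after cold exposure, and of 652, 708 and 627 and then 662, 982 and 822 in Atf4AKO iWAT. The differences of 0.23 ± 0.13 and 0.29 ± 0.13 did not pass (adjusted p = 0.201 and 0.125).

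Transcripts of the ATP synthase also rose, those of 12 of its 17 subunits in Atf4WT and of 13 in Atf4AKO iWAT. As for the other complexes, these are RNA values, and protein was not measured in these libraries. The median log2 fold changes of the parts of the ATP synthase lay apart. In Atf4WT iWAT they were 0.42 for the 5 subunits of F1, 0.38 for the c subunit genes, 0.73 for the peripheral stalk and 0.71 for the other membrane subunits. In Atf4AKO iWAT they were 0.61, 0.38, 0.73 and 0.65. These differences between parts were not tested. Atp5a1, the alpha subunit, gave normalized counts of 40939, 43595 and 31818 in Atf4WT iWAT at RT and 60795, 61854 and 58949 after cold exposure, and of 43532, 48181 and 34675 and then 61986, 73206 and 80604 in Atf4AKO iWAT. It rose without overlap by 0.65 ± 0.17 (limma adjusted p = 0.0127) and 0.78 ± 0.17 (adjusted p = 0.00665). Atp5b, the catalytic beta subunit, gave normalized counts of 75908, 79375 and 60464 in Atf4WT iWAT at RT and 94703, 97662 and 94516 after cold exposure, and of 72524, 86345 and 68033 and then 102832, 122501 and 120569 in Atf4AKO iWAT. The cold libraries lay above the RT libraries in both genotypes, but the log2 fold change of 0.42 ± 0.16 did not pass in Atf4WT (adjusted p = 0.067), while that of 0.61 ± 0.16 passed in Atf4AKO iWAT (adjusted p = 0.0182), but not without replicate 0 or 2 at RT or replicate 1 or 2 in the cold (0.055 to 0.0638). Within each library the counts of the pair were also divided, without regard to transcript length, so that their change and not their size can be read. There were 0.538 ± 0.012 normalized counts of Atp5a1 per count of Atp5b at RT (SD, n = 3) and 0.633 ± 0.0091 after cold exposure in Atf4WT iWAT, without overlap. In Atf4AKO iWAT the ratios were 0.556 ± 0.045 and 0.623 ± 0.040, and the ranges overlapped.

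The central stalk, which turns inside the head, was divided. Atp5d, its delta subunit, rose by 0.80 ± 0.16 (limma adjusted p = 0.004) and 0.78 ± 0.16 (adjusted p = 0.00535). The gamma subunit Atp5c1 gave 13312, 14581 and 10712 normalized counts at RT against 15262, 13962 and 14480.0 in the cold in Atf4WT iWAT, and 13743, 14256 and 12795 against 15344, 16719 and 18126 in Atf4AKO iWAT. Its differences of 0.19 ± 0.12 and 0.30 ± 0.12 did not pass (adjusted p = 0.23 and 0.0798), nor did those of the epsilon subunit Atp5e, 0.37 ± 0.16 and 0.13 ± 0.16 (adjusted p = 0.103 and 0.579). The count of Atp5c1 per count of Atp5b was 0.179 ± 0.0044 at RT and 0.152 ± 0.0091 in the cold in Atf4WT iWAT, and 0.181 ± 0.014 and 0.145 ± 0.0077 in Atf4AKO iWAT. In these ratios, chosen after the values were seen, every cold library lay below every RT library.

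The peripheral stalk holds the head still while the rotor turns. Of its 4 subunits 3 rose, Atp5o, the subunit that confers sensitivity to oligomycin, by 0.84 ± 0.13 and 0.85 ± 0.13, Atp5pb (subunit b) by 0.83 ± 0.11 and 0.83 ± 0.11, and Atp5h (subunit d) by 0.62 ± 0.13 and 0.63 ± 0.13, with limma adjusted p-values between 0.000533 and 0.00506. Atp5j, coupling factor F6, was the exception and gave normalized counts of 7414, 7557 and 6398 in Atf4WT iWAT at RT and 8286, 7429.6 and 6687 after cold exposure, and of 7265, 8122 and 7444 and then 8118, 9418 and 8016 in Atf4AKO iWAT. The groups overlapped in both genotypes and the differences were 0.07 ± 0.10 (adjusted p = 0.657) and 0.16 ± 0.10 (adjusted p = 0.281). Atp5j shares 397 exon bases with Gabpa on the opposite strand, which is listed with a mean of 1349 normalized counts at RT and 1680.4 in the cold in Atf4WT iWAT, and Atp5pb shares 337 with Wdr77.

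The other membrane subunits, which bind the enzymes into the dimers that bend the inner membrane, all rose in Atf4WT iWAT. Atp5md, also named DAPIT, was the ATP synthase gene with the largest response and gave normalized counts of 2392, 3041 and 2438 in Atf4WT iWAT at RT and 5273, 5171 and 4706 after cold exposure, and of 2795, 2864 and 2658 and then 5199.9, 6705 and 5560.4 in Atf4AKO iWAT. It rose by 0.95 ± 0.11 (1.93-fold, limma adjusted p = 0.000249) and 1.06 ± 0.11 (adjusted p = 0.000144), without overlap. Atp5mpl, the other small membrane subunit of this kind, rose by 0.93 ± 0.13 and 0.81 ± 0.13. Atp5l (subunit g) rose by 0.71 ± 0.12 and 0.65 ± 0.12 and Atp5j2 (subunit f) by 0.67 ± 0.12 and 0.59 ± 0.12. Atp5k (subunit e) rose by 0.59 ± 0.18 in Atf4WT iWAT (adjusted p = 0.0287), with 0.42 ± 0.18 in Atf4AKO iWAT (adjusted p = 0.108). Atpaf1, a chaperone that assembles beta into the F1 head, was the only member whose log2 fold change was below 0 in Atf4WT iWAT, and gave normalized counts of 452, 436 and 376 in Atf4WT iWAT at RT and 399, 402 and 424 after cold exposure, and of 365, 443 and 395 and then 383, 505 and 441 in Atf4AKO iWAT. Its groups overlapped in both genotypes, at -0.04 ± 0.13 (adjusted p = 0.825) and 0.14 ± 0.13 (adjusted p = 0.446).

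The c subunit, of which several copies form the ring of the rotor, is encoded by 3 genes, Atp5g1 (chr11:96068852-96075670), Atp5g2 (chr15:102662864-102672352) and Atp5g3 (chr2:73908447-73911326, all minus strand, mm10). Their precursors carry different import sequences and are cut to the same mature protein. The ends of the 3 coding sequences are shown to make clear how far reads of these genes can be told apart. Each stretch is the last 78 codons before the stop codon, from GENCODE transcripts of the same build, with capitals at the 63 of 234 bases where the 3 genes are not all the same.
Atp5g1: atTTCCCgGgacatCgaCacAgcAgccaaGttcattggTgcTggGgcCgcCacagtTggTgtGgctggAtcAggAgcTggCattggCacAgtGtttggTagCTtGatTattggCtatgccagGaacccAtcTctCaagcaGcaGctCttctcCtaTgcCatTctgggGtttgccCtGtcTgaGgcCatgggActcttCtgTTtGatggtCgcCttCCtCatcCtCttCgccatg
Atp5g2: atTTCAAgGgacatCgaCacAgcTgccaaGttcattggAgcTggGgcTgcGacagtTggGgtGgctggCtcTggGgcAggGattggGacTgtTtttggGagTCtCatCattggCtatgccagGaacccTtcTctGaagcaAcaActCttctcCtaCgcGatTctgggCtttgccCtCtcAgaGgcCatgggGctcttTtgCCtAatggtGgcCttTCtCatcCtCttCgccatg
Atp5g3: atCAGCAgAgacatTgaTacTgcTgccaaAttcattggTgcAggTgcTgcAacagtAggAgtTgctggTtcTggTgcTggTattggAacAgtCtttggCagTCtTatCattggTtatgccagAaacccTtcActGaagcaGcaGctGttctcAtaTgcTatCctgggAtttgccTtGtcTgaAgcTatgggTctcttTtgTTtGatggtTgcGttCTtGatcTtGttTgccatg
Between pairs of genes 77.4% to 84.6% of the bases were identical, and the longest identical run was 20 bases, between Atp5g1 and Atp5g2. The differing bases are spread over the whole stretch, and the counting kept only reads that mapped to a single place.

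Atp5g3 had the most counts of the 3 genes in every library. It gave normalized counts of 18745, 19298 and 14709 in Atf4WT iWAT at RT and 28432, 26994 and 21567 after cold exposure, and of 20078, 21979 and 17729 and then 29800.4, 30619 and 30035 in Atf4AKO iWAT, and rose by 0.55 ± 0.14 (limma adjusted p = 0.0124) and 0.60 ± 0.14 (adjusted p = 0.00914). Atp5g2 gave normalized counts of 2932, 2938 and 2678 in Atf4WT iWAT at RT and 3847, 3877 and 3375 after cold exposure, and of 2999, 3190.2 and 3158 and then 3562, 4039.5 and 3566 in Atf4AKO iWAT. It rose by 0.38 ± 0.08 (adjusted p = 0.00557) and 0.25 ± 0.08 (adjusted p = 0.0385). The call in Atf4AKO iWAT was lost in 11 of 25 alternatives. Among these were the fits without any 1 of the 3 Atf4AKO RT libraries, without replicate 1 or 2 of cold-exposed Atf4AKO iWAT and without replicate 0 or 1 of Atf4WT iWAT at RT, with adjusted p-values of 0.0509 to 0.147. Atp5g1, with the fewest counts, gave normalized counts of 1227, 1289 and 1174 in Atf4WT iWAT at RT and 1546, 1338 and 1422 after cold exposure, and of 1260.5, 1288 and 1057 and then 1440.3, 1584 and 1674 in Atf4AKO iWAT. Its difference did not pass in Atf4WT (0.22 ± 0.10, adjusted p = 0.102) and passed in Atf4AKO iWAT (0.38 ± 0.10, adjusted p = 0.0146, and 0.0528 without replicate 2 in the cold). Cold and RT libraries did not overlap for any of the 3 genes in either genotype.

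As a share of the counts of the 3 genes, Atp5g3 took 81.8%, 82.0% and 79.2% in Atf4WT iWAT at RT and 84.1%, 83.8% and 81.8% after cold exposure. In Atf4AKO iWAT the shares were 82.5%, 83.1% and 80.8% at RT and 85.6%, 84.5% and 85.1% in the cold. The mean share was thus higher by 2.18 percentage points in Atf4WT iWAT (1.29 without replicate 2 at RT, and up to 2.89 without replicate 2 in the cold), where the ranges overlapped, and by 2.96 points in Atf4AKO iWAT, where they did not. The 95% Wilson intervals of single libraries were at most 1.12 points wide and cover counting error only. The Atp5g3 shares of each group spanned more than that. The share of Atp5g2 went from 13.2% ± 1.0 (SD, n = 3) to 12.1% ± 0.71 in Atf4WT and from 12.9% ± 1.3 to 10.5% ± 0.57 in Atf4AKO iWAT, and that of Atp5g1 from 5.72% ± 0.53 to 4.71% ± 0.63 and from 4.95% ± 0.20 to 4.42% ± 0.31.

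**Figure D3:**
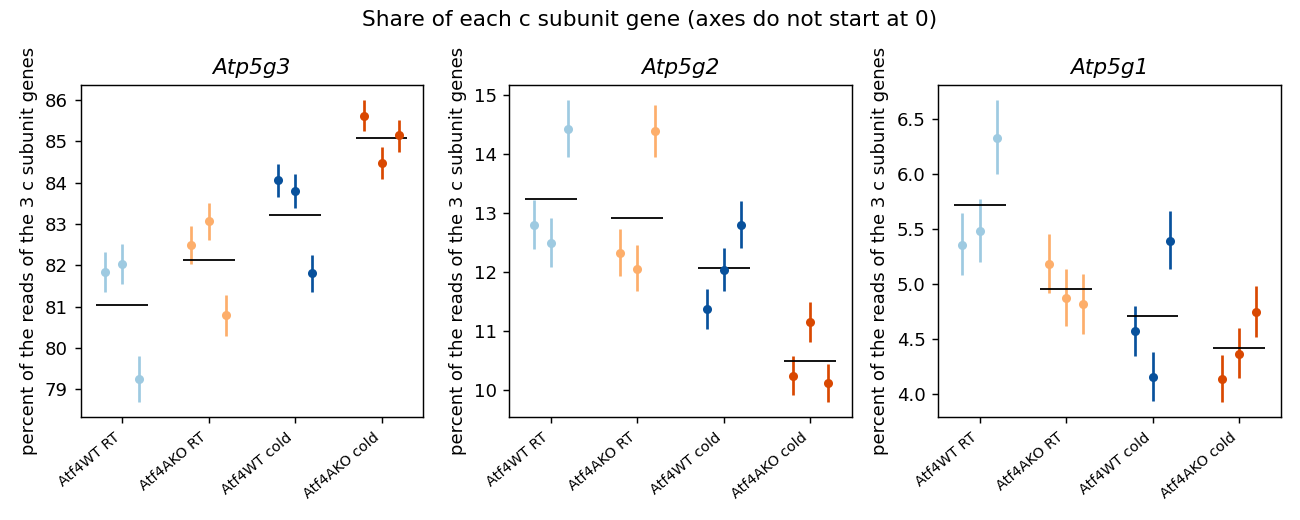
Each point is a library, with its percent of the reads of Atp5g1, Atp5g2 and Atp5g3 on the vertical axis and a 95% Wilson interval as its bar; horizontal lines are group means, and the axes do not start at 0. The Atp5g3 share of the 3 cold Atf4AKO libraries lies above that of all other libraries, between 84.5% and 85.6%.

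The 3 complexes were then compared within each library, because a change that moves a whole library cancels in such a difference. The mean over genes of log2(normalized count + 1) of complex III was 12.09, 12.17 and 11.84 in Atf4WT iWAT at RT and 12.81, 12.76 and 12.52 after cold exposure. That of complex II was 11.17, 11.30 and 10.96 at RT and 11.76, 11.72 and 11.56 in the cold, and that of the ATP synthase 12.61, 12.68 and 12.39 and then 13.21, 13.14 and 12.95. In Atf4AKO iWAT the group means went from 11.25 ± 0.16 (SD, n = 3) to 11.79 ± 0.20 for complex II, from 12.14 ± 0.12 to 12.80 ± 0.20 for complex III and from 12.65 ± 0.10 to 13.21 ± 0.15 for the ATP synthase. All 3 complexes were higher in each cold library than in each RT library of the same genotype.

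The ATP synthase was set against each of the other complexes within each library. Its mean log2 value exceeded that of complex II by 1.42 ± 0.03 at RT and 1.42 ± 0.03 in the cold in Atf4WT iWAT, and by 1.40 ± 0.06 and 1.42 ± 0.05 in Atf4AKO iWAT, with overlapping ranges. It exceeded that of complex III by 0.52, 0.51 and 0.55 in the 3 Atf4WT libraries at RT and by 0.40, 0.38 and 0.43 after cold exposure. In Atf4AKO iWAT the differences were 0.53, 0.48 and 0.53 at RT and 0.44, 0.35 and 0.42 in the cold. The 6 RT libraries lay between 0.48 and 0.55 and the 6 cold libraries between 0.35 and 0.44, without overlap. The difference between complex III and complex II moved from 0.89 ± 0.03 to 1.02 ± 0.05 in Atf4WT and from 0.89 ± 0.04 to 1.01 ± 0.02 in Atf4AKO iWAT. These means give each gene the same weight and depend on which subunits and assembly factors are counted; over subunits alone the median cold responses in Atf4WT iWAT were 0.47 for complex II, 0.86 for complex III and 0.62 for the ATP synthase. No test was made on these means, since the genes were grouped with earlier results of these data known.

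**Figure D4:**
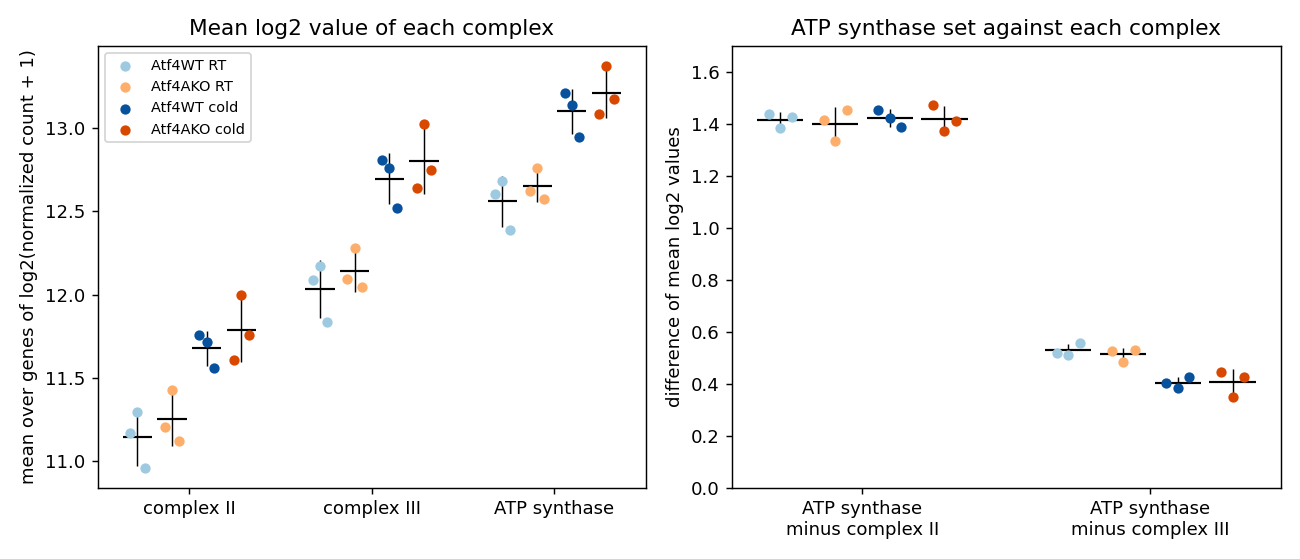
The left panel gives, for each library, the mean over genes of log2(normalized count + 1) for each complex, and the right panel the difference between the ATP synthase and each other complex; points are libraries, lines group means and bars SD (n = 3). The difference from complex II stays near 1.4 in all groups, and that from complex III is lower in the 6 cold libraries (0.35 to 0.44) than in the 6 RT libraries (0.48 to 0.55).

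The ratios and shares given so far were of counts not divided by length. For the order of the levels the counts were divided by transcript length. In Atf4WT iWAT at RT the complex II subunits ranged from 5123 ± 672 normalized counts per kb (SD, n = 3) for Sdhd to 9909.9 ± 1353 for Sdha, with 7093 ± 979 for Sdhb and 6237 ± 878 for Sdhc. After cold exposure Sdhd reached 11099 ± 874 per kb, next to Sdha at 11568 ± 276 and Sdhb at 10862 ± 697, and Sdhc was lowest at 7744 ± 746. The 3 upper values did not differ beyond their spread. The span between the highest and the lowest subunit narrowed from 1.93-fold to 1.49-fold in Atf4WT and from 1.99-fold to 1.54-fold in Atf4AKO iWAT. In complex III it widened from 2.99-fold to 3.56-fold, with Uqcrh as the highest (14989.9 ± 1586 and then 27778 ± 4362 per kb) and Uqcrq as the lowest (5005 ± 885 and 7807 ± 1725). Uqcrq was divided by 1.521 kb, the transcript of its listed accession, and the other small subunits by 0.434 to 0.546 kb. Its rank and the size of this span depend on that length.

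The ATP synthase spanned a wider range, in which Atp5b stood highest at 38274 ± 5358 per kb at RT and 50892 ± 939 in the cold. It was followed by Atp5g3 (24321 ± 3465 and 35497 ± 5007) and Atp5a1 (15947 ± 2539.9 and 24890.1 ± 604), whose libraries did not overlap at RT. Atp5g1 was the lowest subunit at 1589 ± 74.2 and 1855 ± 135. Assembly factors lay at 153 to 794 per kb for complex II, 328 to 2369 for complex III and 219 for Atpaf1 in Atf4WT iWAT at RT. Across the 39 genes the cold response in Atf4WT iWAT correlated weakly with the level per kb at RT (Pearson r = 0.38, Spearman rho = 0.27) and with log2 transcript length (r = -0.26, rho = -0.26), given as a description.

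**Figure D5:**
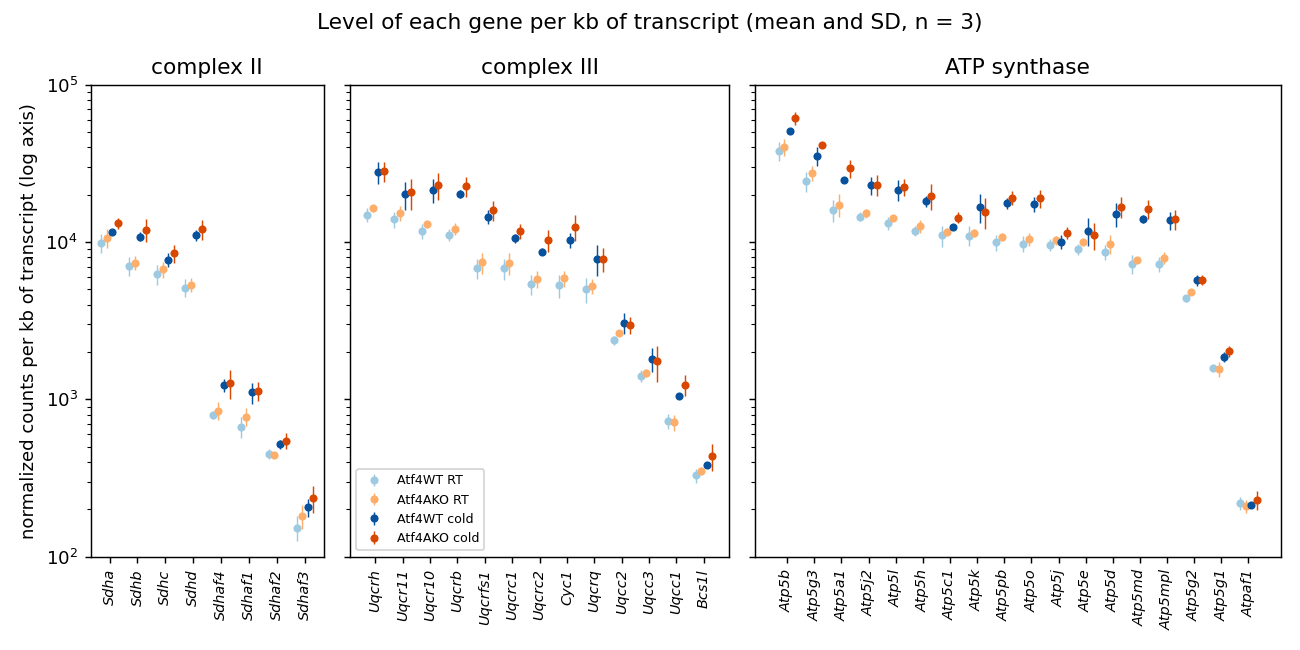
Points are the mean normalized counts per kb of transcript in each group, on a log axis, with SD bars (n = 3), and genes are ordered by their level in Atf4WT iWAT at RT. Subunits fill the upper part of each panel, down to Atp5g1 at 1553 in Atf4AKO iWAT at RT, and the lowest points belong to assembly factors.

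Atf4AKO was then compared with Atf4WT iWAT, the question being whether adipocyte ATF4 sets the level of these genes or their response to cold. None of the 39 genes passed the test after cold exposure, where 0% of all tested genes were called higher and 0.0298% lower (limma, adjusted p). None passed at RT, where 0% of all tested genes were called higher and 0.00746% lower, and none in the difference of the cold responses, where none of all tested genes was called. At an unadjusted p-value under 0.05 the count was also 0 of 39 in each, against 11.7% of all tested genes in the cold, 1.53% at RT and 6.92% for the difference. At the adjusted threshold it was 0 with edgeR and DESeq2 on the recovered reads too. Of all 13404 genes it tested, edgeR called 3 in the cold, 1 at RT and 0 for the difference. DESeq2 called 591 of 14159 in the cold, 4 at RT and 128 for the difference. The smallest limma adjusted p-value of the 39 genes was 0.519 after cold exposure, 0.9999 at RT and 0.987 for the difference. The log2 differences between genotypes ranged from -0.10 (Atp5k) to 0.27 (Atp5b) in the cold and from -0.07 (Atpaf1) to 0.24 (Sdhaf3) at RT, with standard errors between 0.08 and 0.20. The differences of the cold responses ranged from -0.24 (Atp5e) to 0.24 (Uqcc1), with standard errors between 0.11 and 0.28, and 22 of 39 lay above 0 (56.5% of all tested genes). A p-value that misses the threshold does not show that the genotypes were alike. Atf4 itself, with a log2 difference of -1.61 ± 0.22 at RT, did not pass there (limma adjusted p = 0.0762). In the cold its difference of -2.60 ± 0.22 passed (adjusted p = 0.000644).

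Most of the small differences shared a direction. In the cold 34 of the 39 genes had a higher mean log2 value in Atf4AKO iWAT (59.3% of all tested genes), with a median difference of 0.12 against 0.05 for all tested genes, and at RT 35 of 39 (51.8%), with 0.11 against 0.01. The count in the cold depended on the processing. It was 27 with 75th percentile scaling, 25 with array weights, 35 with edgeR and 34 with DESeq2. At RT these settings gave 35, 34, 35 and 35. The cold libraries of the genotypes did not overlap, with Atf4AKO higher, for Sdha, Atp5a1, Atp5b, Atp5c1 and Atp5g3, 5 of 39 genes against 8.68% of all tested genes. At RT this held for Atp5g2 and Uqcc2, against 3.32%. In the cold, B and T cell markers were also higher in Atf4WT iWAT, where the mean log2 value of the markers was 7.27, 9.28 and 9.77 against 5.09, 3.60 and 3.92 in Atf4AKO iWAT. No single marker of these lists passed between genotypes in the cold (limma adjusted p = 0.0648 to 0.0843). With the mean log2 value of these markers as a covariate 0 of the 39 log2 differences in the cold were above 0, and the medians were -0.41 for complex II, -0.42 for complex III and -0.31 for the ATP synthase. At RT, with the Atf4WT RT library of the highest muscle marker sum left out together with replicate 0 of cold-exposed Atf4WT iWAT, 22 of 39 were above 0. With the mean log2 value of the muscle markers as a covariate 35 of 39 were above 0 at RT and 35 in the cold. In the cold the direction thus turned with the lymphocyte covariate. The lymphocyte values of the genotypes did not overlap there, so this covariate cannot be told apart from genotype. The cause of the turn was not tested.

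The genes that surround these complexes in the respiratory chain were taken from lists. Ucp1, the uncoupling protein of beige adipocytes, gave normalized counts of 439, 685 and 204 in Atf4WT iWAT at RT and 94771, 73632 and 74684 after cold exposure, and of 1097, 441 and 298 and then 81033, 119558 and 90868 in Atf4AKO iWAT, a rise by 7.67 ± 0.47 (limma adjusted p = 1.32e-05) and 7.51 ± 0.47 (adjusted p = 8.69e-06). Of the other uncoupling proteins Ucp3 rose by 0.97 ± 0.17 and 1.39 ± 0.17, and Ucp2 passed in neither genotype (0.39 ± 0.24 and -0.27 ± 0.24). Cytochrome c (Cycs), which carries electrons away from complex III, gave 7308, 7848 and 4968 normalized counts at RT against 24698, 22099.9 and 22514 in the cold in Atf4WT iWAT, and 8174, 8071 and 5954 against 21353, 29844 and 24282 in Atf4AKO iWAT. It rose by 1.81 ± 0.19 and 1.77 ± 0.19, a larger log2 fold change than that of any of the 39 genes, and Hccs, the lyase that attaches its heme and that of cytochrome c1, rose by 1.39 ± 0.11 and 1.53 ± 0.11. All 5 analysed genes of this list rose in both genotypes, including the complex III assembly factors Lyrm7, Ttc19 and Smim4.

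The other genes of the ATP synthase did not all share its direction. Atpif1, the inhibitor that stops the enzyme from hydrolysing ATP when the proton gradient falls, gave normalized counts of 747, 848 and 895 in Atf4WT iWAT at RT and 636, 503 and 524 after cold exposure, and of 797, 795 and 839 and then 742, 489.8 and 472 in Atf4AKO iWAT. It fell by 0.58 ± 0.16 on the log2 scale in Atf4WT (limma adjusted p = 0.0189) and by 0.54 ± 0.16 in Atf4AKO iWAT (adjusted p = 0.0307), with no overlap between cold and RT libraries. Both calls were narrow: in Atf4WT iWAT the adjusted p lay between 0.0571 and 0.0664 without replicate 1 or 2 at RT or replicate 1 or 2 in the cold, and in Atf4AKO iWAT between 0.065 and 0.109 without any 1 of the 3 RT libraries or without replicate 1 or 2 in the cold. The assembly factors Tmem70 and Fmc1 and the membrane insertase Oxa1l rose in both genotypes, by 0.42, 0.63 and 0.78 in Atf4WT iWAT, and Tmem242 passed in neither. Of the carriers that bring phosphate and ADP to the enzyme, Slc25a3 rose by 0.43 ± 0.11 and 0.55 ± 0.11 and Slc25a5 by 0.62 ± 0.15 and 0.72 ± 0.15, and Slc25a4 rose in Atf4AKO iWAT (0.45 ± 0.14) and did not pass in Atf4WT (0.23 ± 0.14). The difference of its responses was 0.22 ± 0.19 (limma adjusted p = 0.996).

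Complex II is 1 of several dehydrogenases that feed ubiquinone, and of the 8 other genes of this kind that were tested 3 rose and 2 fell in Atf4WT iWAT, against 2 and 2 in Atf4AKO iWAT. Etfdh, which passes on electrons from fatty acid oxidation, rose by 1.11 ± 0.15 (limma adjusted p = 0.000607) and 1.32 ± 0.15 (adjusted p = 0.000269). Gpd2, the mitochondrial glycerol 3-phosphate dehydrogenase, rose by 1.08 ± 0.21 and 1.26 ± 0.21. Sqor, which oxidizes sulfide, fell by 0.74 on the log2 scale in Atf4WT and by 0.51 in Atf4AKO iWAT, and Chdh, which oxidizes choline, fell by 0.70 and 0.58. With the lymphocyte covariate neither passed in Atf4WT iWAT, and the Chdh call in Atf4AKO iWAT was lost without replicate 1 or 2 at RT or replicate 0 or 1 in the cold (adjusted p = 0.0568 to 0.0853). Etfb, part of the flavoprotein that hands electrons to ETFDH, rose by 0.60 ± 0.16 in Atf4WT (adjusted p = 0.0145) and had 0.34 ± 0.16 in Atf4AKO iWAT (adjusted p = 0.14). Its partner Etfa, Dhodh and Prodh passed in neither. Of the 11 analysed regulators of respiratory chain genes 6 rose in Atf4WT iWAT: the coactivators Ppargc1a and Ppargc1b by 2.01 ± 0.25 and 1.62 ± 0.20, the receptors Esrra and Esrrg by 1.27 ± 0.17 and 2.02 ± 0.36, Gabpa by 0.32 ± 0.06 and the mitochondrial DNA factor Tfam by 0.46 ± 0.08. The same 6 rose in Atf4AKO iWAT. Nrf1 (0.18 ± 0.10), Yy1 (-0.06 ± 0.08), Pprc1, Esrrb and Gabpb1 passed in neither.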

How the data were processed

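Polyadenylated RNA from 12 iWAT samples was sequenced from strand-specific libraries. Per the study's methods, the authors filtered reads with SOAPnuke, used STAR for alignment to mm10 and featureCounts for the uniquely mapped reads of each gene, and divided the counts by pyDESeq2 size factors, and the deposited values are this normalized signal (versions and the strand option of the counting are not given in the sources used here). Dividing by the value of 1 read gave whole reads for 100% of values within 0.01. Libraries held 25719476 to 29105147 reads, and intervals cover counting error only.

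The log2(normalized count + 1) values of 13404 genes with a mean of at least 10 were fitted with limma 3.58.1 (R 4.3.3; 4 group means, moderated variance with trend), with Benjamini-Hochberg adjustment over all of them, after a test on simulated data. edgeR 4.0.16 and DESeq2 1.42.0 were run on the recovered reads as alternatives, and other alternatives were other pseudocounts, filters, scalings, weights, covariates and libraries left out. Whether replicates came from separate litters is not given. Members and lists were chosen with earlier results of these data known. Values in each library were given for the core subunits and for the largest and smallest cold response of each complex in Atf4WT; Uqcr11, Atp5c1, Atp5j, Atpif1, Cycs and the promoters shown were added after their values were seen. Transcripts of mitochondrial DNA were not analysed here. Not all genes that start beside a member are reported here. Marker lists for macrophages, endothelium, fibroblasts, epithelium and erythroid cells gave no gene called between genotypes, and after cold exposure 2 of 5 endothelial and 2 of 5 fibroblast markers fell in Atf4WT iWAT and 1 and 3 in Atf4AKO iWAT.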

Additional observations from a re-analysis of the deposited data

How the results depend on the processing

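The count of members that passed after cold exposure lay between 24 and 32 in Atf4WT and between 23 and 30 in Atf4AKO iWAT (26 in each as reported) at the same threshold with all libraries kept, with 28 and 27 by edgeR and 28 and 28 by DESeq2. Chosen after seeing the data, leaving out both muscle-rich Atf4WT libraries gave 17 in Atf4WT iWAT (26 with the muscle markers as a covariate), a median of 0.44 for its ATP synthase genes (0.61 with that covariate) and a median difference of cold responses of 0.17 for them. With the lymphocyte markers as a covariate the medians were 0.91, 1.09 and 1.00 for complex II, complex III and the ATP synthase in Atf4WT iWAT. They were -0.41, -0.42 and -0.31 for Atf4AKO against Atf4WT in the cold, and -0.47, -0.54 and -0.42 for the difference of cold responses. This covariate cannot be told apart from cold exposure in Atf4WT iWAT, nor from genotype in the cold, and the cause was not tested. Over subunits alone the complex III median in Atf4WT iWAT was 0.86. Atpaf1 in Atf4WT iWAT changed sign, to 0.22 with the lymphocyte covariate and to 0.010 without replicate 0 at RT, in a range of -0.12 to 0.010 with 1 library left out. Of 530 settings of the main values 517 stayed on the same side or within the spread.

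Without 1 library at a time the count ranged from 23 to 28 in Atf4WT and from 21 to 28 in Atf4AKO iWAT, and was 0 between genotypes. The medians of complex II, complex III and the ATP synthase ranged from 0.46 to 0.62, 0.51 to 0.74 and 0.49 to 0.68 in Atf4WT iWAT, and from 0.34 to 0.58, 0.66 to 0.86 and 0.52 to 0.68 in Atf4AKO iWAT. With the replicate number as a block (replicate block) 31 and 30 members passed and 0 between genotypes. Over all tested genes the block raised the calls between genotypes in the cold from 4 to 189. The numbers were not taken to pair the libraries, since 9 of 18 same-numbered pairs correlated above 0.1, from -0.19 to 0.39, although those of replicate 1 all did (0.18 to 0.39). In every other group 4 of 12 libraries correlated best with their own number. The difference of cold responses was not fitted on only the groups compared. With 3 libraries per group an exact permutation test of 1 gene cannot go below 0.1.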

Other observations

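Many genes of the respiratory chain start beside a gene on the opposite strand. Of the neighbours described here that start within 1000 bases of a member, Timm8b, Zfp142, Kin and Pdcd11 rose after cold exposure in both genotypes and Ccdc127, Haus1, Kctd2, Zmat5, Lrrc41 and Gdf9 passed in neither (limma, adjusted over all tested genes, of which 17.0% rose in Atf4WT and 14.8% in Atf4AKO iWAT).

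Timm8b, an import factor of the intermembrane space that starts 98 bases from Sdhd, gave normalized counts of 1318, 1672 and 1317 in Atf4WT iWAT at RT and 3049, 2856 and 2406 after cold exposure, and of 1672, 1699.7 and 1547 and then 2517, 3549.8 and 2600.2 in Atf4AKO iWAT. It rose by 0.95 ± 0.14 (adjusted p = 0.000904) and 0.80 ± 0.14 (adjusted p = 0.00268), beside 1.12 and 1.17 for Sdhd. Ccdc127, which starts 29 bases from Sdha, had differences of -0.00 ± 0.09 and 0.22 ± 0.09, beside 0.23 and 0.31 for Sdha, and neither gene passed. For Bcs1l and Atp5c1 the neighbour passed and the member did not: Zfp142, 43 bases from Bcs1l, rose by 0.63 ± 0.13 and 0.68 ± 0.13, and Kin, 83 bases from Atp5c1, rose by 0.62 ± 0.13 and 0.68 ± 0.13. Pdcd11, 121 bases from Atp5md, rose by 0.47 ± 0.11 and 0.33 ± 0.11. These genes were looked at after the values of the members were known.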
